A study of Homo sapiens with 6 samples.

Results

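The S100 calcium-binding protein genes were examined in MDA-MB-231 cells with and without knockdown of ZNF148. The 10 genes followed were S100A2, S100A3, S100A4, S100A6, S100A8, S100A10, S100A11, S100A13, S100A14 and S100A16. Each was taken by its symbol from the 24108 rows of the deposited expression table, after symbols joined by commas were split, and each had a single row.

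MDA-MB-231 is an established human breast cancer cell line, labelled as basal subtype, with invasive growth and no estrogen receptor. RNA sequencing was made of 3 samples with a control hairpin (shCtr, directed at luciferase, which these cells lack) and 3 with a hairpin directed at ZNF148 (shZNF148). All 6 samples came from cells transduced with lentivirus for 48 h and then selected for 24 h in puromycin at 0.5 µg/ml, so the control carried the vector and the drug as well. Only 1 hairpin sequence stands behind the knockdown, and the cells were pools selected with the drug. The comparison asked which transcripts differ once ZNF148, a zinc finger transcription factor that binds G-rich DNA, is reduced. ZNF148 itself was at 3.72, 4.36 and 4.30 FPKM in shCtr and 0.914, 0.282 and 0.834 FPKM in shZNF148 (log2 fold change −1.63, adjusted p = 0.0099; 0.0673 without shCtr replicate 1 and 0.0653 without shCtr replicate 3). The size of this fold change depends on the pseudocount at such low levels, and it was −2.57 with 0.1 FPKM and −0.69 with 5 FPKM in place of 1.

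S100 proteins are small dimeric proteins that carry EF-hands, helix-loop-helix folds which close around calcium. When calcium enters the cell most of them open a hydrophobic face and grip a partner, such as an annexin at the membrane, a myosin heavy chain or a transcription factor. Several are also released and act outside the cell on receptors such as RAGE (the product of AGER) and TLR4, and in breast cancer the family is best known for its links to migration and metastasis.

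All 10 genes lie on chromosome 1q21 in GRCh38, on the minus strand. S100A6, S100A5, S100A4, S100A3 and S100A2 are neighbours in that order, spanning 33292 bases from the end of S100A6 at chr1:153534599-153536244 to the start of S100A2 at chr1:153561108-153567890. S100A4 is annotated at chr1:153543613-153550136 and S100A3 at chr1:153547329-153549258. S100A16 (chr1:153606886-153613145), S100A14 (chr1:153614255-153616986) and S100A13 (chr1:153618787-153631360) follow, while S100A8 (chr1:153390032-153391073) lies on the other side. S100A10 (chr1:151982915-151993859) and S100A11 (chr1:152032506-152047907) sit together, at −1542 and −1499 kb from the S100A6 start site. S100A10 was the only tested member with a lower mean log2 level in shZNF148 and was not called. The 250 bases before its start site and before those of the 3 called members are printed here. They are on the minus strand of GRCh38.p14 and come from RefSeq. The S100A2 window (chr1:153565845-153566094) is intronic to longer S100A2 transcripts, and those of S100A3 (chr1:153549259-153549508) and S100A4 (chr1:153545807-153546056) are intronic to a long S100A4 transcript. The S100A10 window (chr1:151993860-151994109) overlaps no annotated gene. Capitals mark TATAAA or GGGTGGGG.
S100A2: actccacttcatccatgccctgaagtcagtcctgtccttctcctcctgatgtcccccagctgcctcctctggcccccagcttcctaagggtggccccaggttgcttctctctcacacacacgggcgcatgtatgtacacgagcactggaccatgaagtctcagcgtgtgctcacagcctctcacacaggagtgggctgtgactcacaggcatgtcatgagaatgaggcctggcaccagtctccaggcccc
S100A3: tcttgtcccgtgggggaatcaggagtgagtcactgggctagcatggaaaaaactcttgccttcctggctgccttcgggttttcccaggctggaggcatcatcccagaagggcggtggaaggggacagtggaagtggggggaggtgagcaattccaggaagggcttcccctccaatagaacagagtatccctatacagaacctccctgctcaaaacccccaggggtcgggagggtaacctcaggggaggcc
S100A4: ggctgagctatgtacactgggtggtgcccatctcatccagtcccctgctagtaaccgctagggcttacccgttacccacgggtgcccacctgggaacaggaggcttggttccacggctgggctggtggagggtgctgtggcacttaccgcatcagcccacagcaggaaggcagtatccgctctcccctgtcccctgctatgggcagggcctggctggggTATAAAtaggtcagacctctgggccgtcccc
S100A10: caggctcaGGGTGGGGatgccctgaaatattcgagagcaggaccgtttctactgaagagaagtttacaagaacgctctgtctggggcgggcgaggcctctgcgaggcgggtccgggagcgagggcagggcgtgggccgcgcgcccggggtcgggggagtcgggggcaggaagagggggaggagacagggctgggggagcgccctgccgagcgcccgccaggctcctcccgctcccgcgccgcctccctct

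The windows were searched on both strands for 2 G-rich words, GGGGAGGG and GGGTGGGG, for the TATA box core TATAAA and for the E-box CACGTG. None of these words contains another. Over all 35116 RefSeq windows of the same length, 12.7% held GGGGAGGG, 10.4% GGGTGGGG, 10.7% TATAAA and 6.34% CACGTG. The windows of S100A4, S100A8 and S100A13 held TATAAA, and S100A2 and S100A3 held none of the 4 words. GGGTGGGG was found once in the window of S100A10 and once in those of S100A6, S100A8, S100A14 and S100A16, GGGGAGGG in that of S100A11, and CACGTG in none of the 10. The windows of the 3 called members held neither of the 2 exact G-rich words, and nor did that of S100A13, with a log2 fold change of 0.00. Similar stretches, such as ggggaggt in the S100A3 window, were not counted. The words were found for S100A10, with lower levels in shZNF148, and for S100A6 and S100A11, with log2 fold changes of 0.32 and 0.19. They were also found for S100A16, at 0.02, and for S100A8 and S100A14, which were too low to test. GC content was 59.2% for S100A2, 58.4% for S100A3 and 62.8% for S100A4, against a median of 58% over all windows, and 71.2% for S100A10. A match describes letters only and is no measured binding site, and whether ZNF148 binds windows with or without a match was not tested here.

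Levels are given in FPKM, fragments per kilobase of transcript and per fixed number of mapped fragments. How well this measure compares short transcripts with other genes was not tested. RPS27, a ribosomal protein gene with a canonical transcript of 352 bases, was listed at 0 to 0.759 FPKM. The canonical transcripts of S100A6 and S100A8 have 434 and 408 bases. Orders, ranks and shares across genes are therefore uncertain. In shCtr cells the members ran in the order S100A6, S100A10, S100A11, S100A4, S100A16, S100A13, S100A3, S100A2, S100A14 and S100A8, with means of 5508, 1415, 1253, 385, 218, 99.01, 21.5, 10.3, 0.123 and 0 FPKM. No 2 neighbours in this order among the 8 most abundant overlapped in their 3 samples. S100A6 had rank 2 of all 24108 rows by mean FPKM over the 6 samples. In shZNF148 cells S100A11, at 1217 to 1651 FPKM, S100A4, at 803 to 1729 FPKM, and S100A10, at 913 to 1024 FPKM, overlapped in part, so that S100A10 moved from rank 2 to rank 4 of the members by mean while its order against S100A4 was not separated by the samples.

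**Figure D1:**
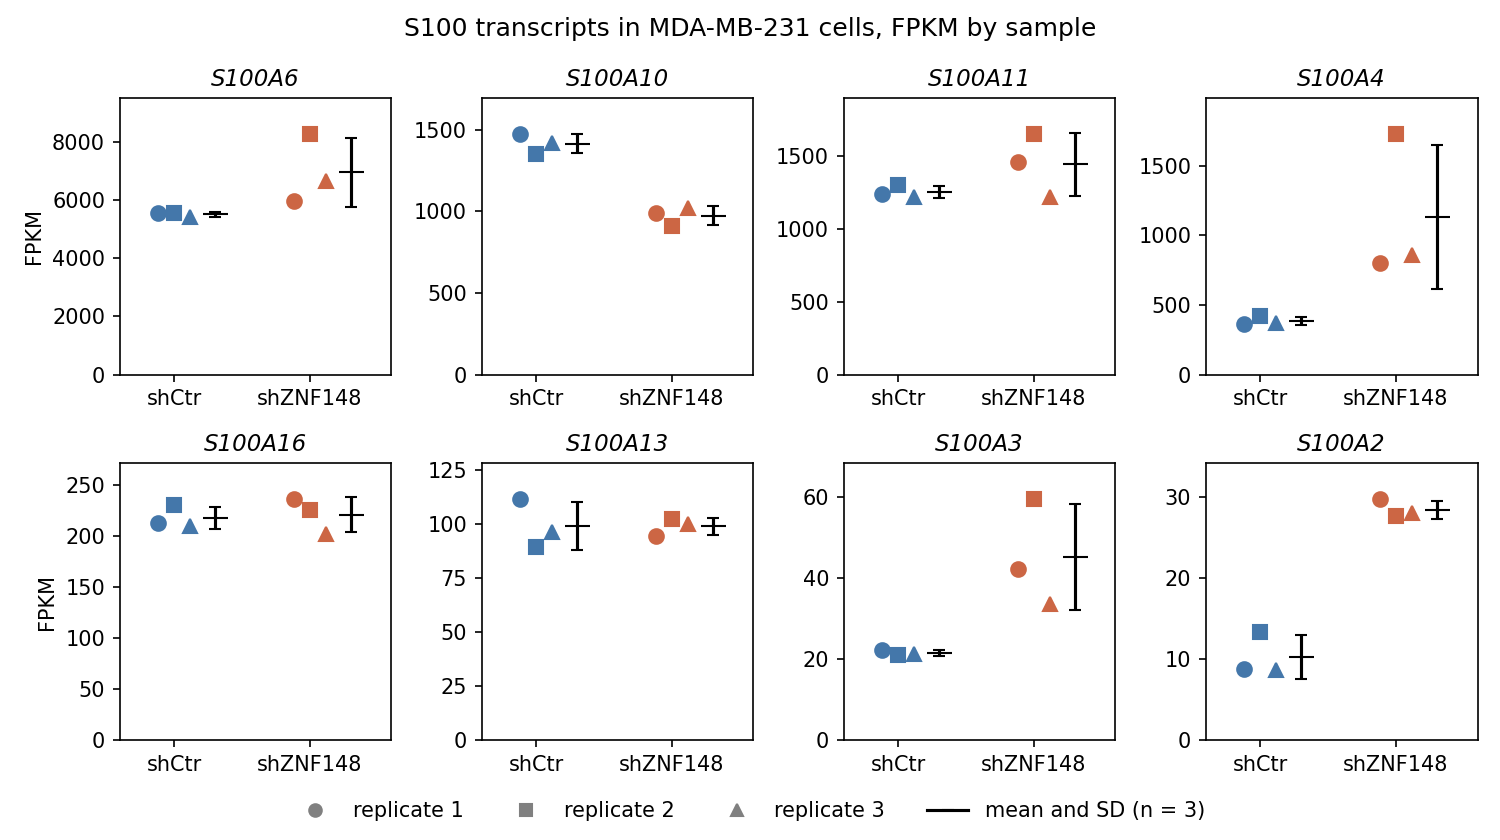
FPKM (linear axis from 0) of the 8 members with a mean of at least 1 FPKM, in panels ordered by shCtr level. Blue symbols are shCtr and orange symbols shZNF148, the symbol shape is the replicate number, and the cross bar is the mean with its SD (n = 3). S100A2, S100A3, S100A4 and S100A6 sit higher in all 3 shZNF148 samples, S100A10 sits lower in all 3, and S100A11, S100A13 and S100A16 overlap.

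Fold changes were taken on the log2(FPKM + 1) scale, shZNF148 over shCtr, by limma over the 11777 rows whose mean reached 1 FPKM, and a gene was called where the adjusted p was under 0.05 and the change over 1.5-fold. Of the 10 members 8 were tested, and S100A8 and S100A14 were too low. Among the 8, 3 were called higher and 0 lower, while 1.83% of all tested rows were called higher and 3.66% lower. By the adjusted p alone 3 were higher and 1 lower, beside 5.46% and 8.13% of all rows. The 2 groups did not overlap for 4 members that were higher and 1 that was lower, beside 20.0% and 21% of all rows. The median log2 fold change of the 8 was 0.26, against 0.01 over all tested rows. Without shCtr replicate 1 or without shCtr replicate 3 no member was called, and without shCtr replicate 2 or without shZNF148 replicate 1 only S100A2 was called. The exact two-sided permutation test over the 6 samples gave p = 0.1 for S100A2, S100A3, S100A4, S100A6 and S100A10, and 0.1 is the smallest p that 3 against 3 samples allow.

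**Figure D2:**
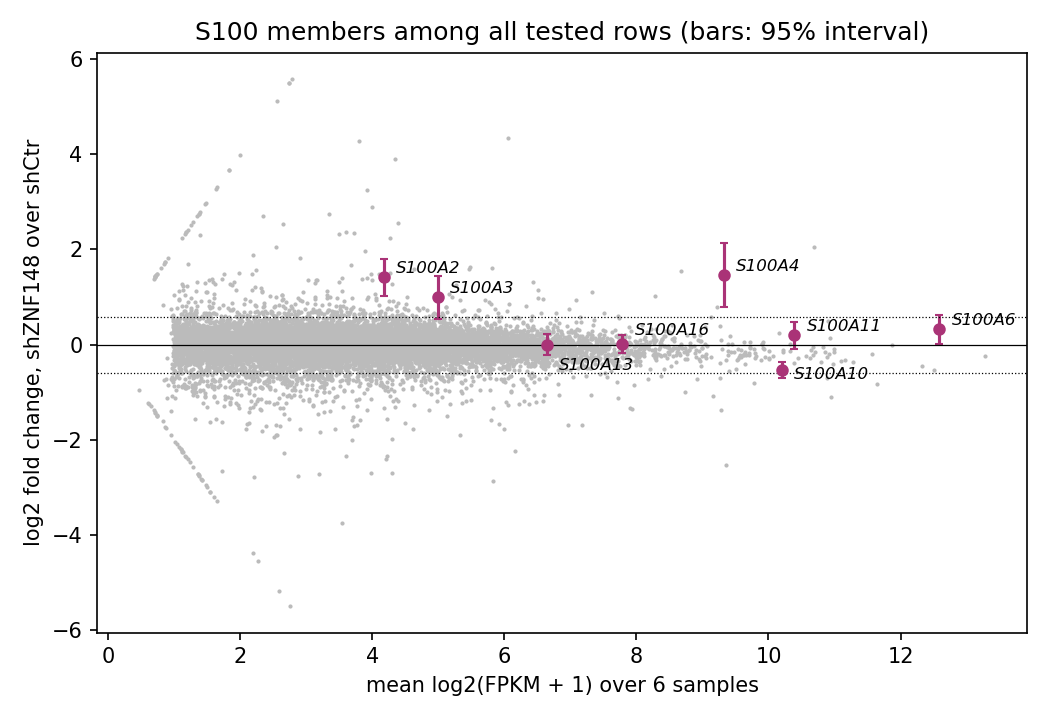
Log2 fold change (shZNF148 over shCtr, FPKM + 1) of all 11777 tested rows against their mean log2(FPKM + 1) over 6 samples, in grey, with the 8 tested S100 members in colour and their 95% intervals. The dotted lines mark a 1.5-fold change. S100A4 at 1.46 and S100A2 at 1.41 lie far above the median of all rows, and S100A10 at −0.54 lies just inside the lower line.

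S100A4 is the member most closely tied to metastasis. It binds the tail of non-muscle myosin IIA, the product of MYH9, and loosens its filaments. S100A4 was at 367, 419 and 369 FPKM in shCtr and at 803, 1729 and 862 FPKM in shZNF148. All 3 knockdown samples were above all controls, and replicate 2 was far above the other two. The mean rose from 385 ± 29.6 to 1131 ± 518 FPKM (SD, n = 3), a log2 fold change of 1.46 (SE 0.28, 95% interval 0.79 to 2.13, adjusted p = 0.0258), and the change ranked 63 from the top of the tested rows. Without shZNF148 replicate 2 the log2 fold change was 1.11 (adjusted p = 0.0039). The adjusted p was 0.107 without shCtr replicate 1, 0.0745 without shCtr replicate 2, 0.102 without shCtr replicate 3 and 0.0520 without shZNF148 replicate 1. S100A4 was 4.08 to 4.66% of the summed S100 FPKM in shCtr and 8.37 to 13.3% in shZNF148.

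S100A3 is a cysteine-rich, zinc-binding protein known from the hair cuticle. It was at 22.25, 21.003 and 21.15 FPKM in shCtr and at 42.2, 59.4 and 33.6 FPKM in shZNF148. The groups did not overlap, and knockdown replicate 2 was the highest, as it was for S100A4. The mean rose from 21.5 ± 0.682 to 45.1 ± 13.1 FPKM (log2 fold change 1.00, SE 0.19, 95% interval 0.55 to 1.45, adjusted p = 0.0252). Without shZNF148 replicate 2 it was 0.78 (adjusted p = 0.0135), and the adjusted p was 0.0987 without shCtr replicate 1, 0.0811 without shCtr replicate 2, 0.0986 without shCtr replicate 3 and 0.0677 without shZNF148 replicate 1. S100A3 lies inside the span of the long S100A4 transcript, with 1930 overlapping gene bases and 0 shared exon bases. The level of S100A4 was 16.5 to 20.0 times that of S100A3 in shCtr and 19.0 to 29.1 times in shZNF148, and how reads were split between the 2 genes was not tested.

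S100A2 is found mainly in the nucleus of basal epithelial cells and binds p53. It was at 8.71, 13.4 and 8.69 FPKM in shCtr and at 29.7, 27.6 and 28.0 FPKM in shZNF148. The knockdown samples were close together, and the highest control, replicate 2, was below the lowest of them. The mean rose from 10.3 ± 2.70 to 28.4 ± 1.12 FPKM (log2 fold change 1.41, SE 0.16, 95% interval 1.03 to 1.79, adjusted p = 0.0103). The log2 fold change was 1.32 both without shCtr replicate 1 (adjusted p = 0.0673) and without shCtr replicate 3 (adjusted p = 0.0658).

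S100A5 is the neighbour that completes this run of genes and is not among the 10. It was at 5.51, 7.26 and 4.78 FPKM in shCtr and at 18.9, 15.6 and 8.62 FPKM in shZNF148 (log2 fold change 1.12, SE 0.28, adjusted p = 0.0448). All knockdown samples were above all controls, but replicate 3 only narrowly. The call was lost in 9 of 15 alternatives, with an adjusted p of 0.147 without shCtr replicate 1, 0.0872 without shCtr replicate 2, 0.148 without shCtr replicate 3, 0.108 without shZNF148 replicate 1 and 0.0900 without shZNF148 replicate 2.

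S100A6, also called calcyclin, binds annexins and the calcyclin-binding protein CACYBP and is abundant in proliferating cells. It was at 5556, 5561 and 5408 FPKM in shCtr and at 5945, 8255 and 6646 FPKM in shZNF148. Every knockdown sample was above every control, and replicate 2 was again the highest. The means were 5508 ± 87.3 and 6949 ± 1184 FPKM, and the log2 fold change of 0.32 (SE 0.13, 95% interval 0.02 to 0.62) did not pass the test (adjusted p = 0.128). Without shZNF148 replicate 2 the log2 fold change was 0.19. S100A6 alone was 61.8 to 61.9% of the summed S100 FPKM in shCtr and 61.9 to 65.7% in shZNF148.

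S100A10 differs from its relatives in that its EF-hands no longer bind calcium. It forms a stable complex with annexin A2 at the plasma membrane, where it takes up plasminogen and its activator, tissue plasminogen activator (PLAT). S100A10 was at 1474, 1354 and 1418 FPKM in shCtr and at 989, 913 and 1024 FPKM in shZNF148. All 3 knockdown samples were below all controls, with little spread in either group. The mean went from 1415 ± 59.9 to 975 ± 56.4 FPKM, a ratio of 0.689. The log2 fold change of −0.54 (SE 0.07, 95% interval −0.71 to −0.37) passed the adjusted p (0.0122) but was under the 1.5-fold change needed for a call. The adjusted p was 0.0852 without shCtr replicate 1 and 0.0797 without shCtr replicate 3. S100A10 was the only tested member with a lower mean log2 level in shZNF148, and its share of the summed S100 FPKM was 15.1 to 16.4% in shCtr and 7.05 to 10.3% in shZNF148.

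S100A11, a partner of annexin A1 that takes part in membrane repair, was at 1240, 1299 and 1220 FPKM in shCtr and at 1460, 1651 and 1217 FPKM in shZNF148. Replicate 3 of the knockdown was below all controls, so the groups overlapped (log2 fold change 0.19, 95% interval −0.08 to 0.47, adjusted p = 0.281, exact permutation p = 0.4). The log2 fold change was 0.09 without shZNF148 replicate 2 and 0.31 (adjusted p = 0.0660) without shZNF148 replicate 3. The annotation holds 8 pseudogenes named after S100A11, and reads shared with them make its level uncertain. The ratio of S100A10 to S100A11 was 1.04 to 1.19 in shCtr and 0.553 to 0.841 in shZNF148, with no overlap.

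S100A13 helps release fibroblast growth factor 1 (FGF1) by a route that bypasses the Golgi. It was at 111, 89.4 and 96.3 FPKM in shCtr and at 94.6, 102 and 99.8 FPKM in shZNF148. The knockdown samples all lay within the range of the controls (log2 fold change 0.00, 95% interval −0.21 to 0.22, adjusted p = 0.986). S100A13 and S100A1 lie on opposite strands and share 235 exon bases in some transcripts, and with the strand used in counting not stated their reads cannot be told apart there. S100A16, which is expressed in many tissues, was at 213, 231 and 210 FPKM in shCtr and at 236, 226 and 202 FPKM in shZNF148. Its groups overlapped as well (log2 fold change 0.02, 95% interval −0.17 to 0.21, adjusted p = 0.882). For both genes the intervals leave out a change of 1.5-fold in either direction.

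S100A14, an epithelial member, was listed at 0, 0.120 and 0.249 FPKM in shCtr and at 0.116, 0.117 and 0 FPKM in shZNF148. S100A8, which with S100A9 forms the calprotectin of neutrophils, was listed at 0 in all 6 samples. S100A9 had a value in shCtr replicate 3 alone, of 0.286 FPKM. With the depth unknown, a listed 0 does not show that a transcript is absent. Of 11 further S100 and S100-related genes 6 were at 0 in all samples (S100A7, S100A7A, S100A12, S100B, S100G and S100Z), and S100A1 (0.642 and 1.09 FPKM on average) and S100P (0.228 and 0.261 FPKM) were too low to test. S100PBP, whose product binds S100P, was tested and lay at 7.14 and 7.43 FPKM on average (adjusted p = 0.690). MDA-MB-231 thus showed 8 measured S100 members in both conditions, and beside them S100A5, at 5.85 and 14.4 FPKM on average.

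The members' summed level was 1.77, 1.80 and 1.76% of all FPKM in shCtr and 2.02, 2.66 and 2.15% in shZNF148. The groups did not overlap, and the sums were set mostly by S100A6. The summed FPKM of all rows was 497730 to 507312 in shCtr and 469594 to 488173 in shZNF148. Since it too did not overlap between the groups, the shares carry both differences. Scaling every sample to the same summed FPKM moved the median log2 fold change of all rows from 0.01 to 0.07, and changed the calls over all rows from 216 higher and 431 lower to 390 higher and 355 lower, while 3 members were again called higher and 0 lower.

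Along the chromosome the called genes were neighbours. S100A5, S100A4, S100A3 and S100A2, whose start sites lie 4.943, 9.815, 13.27 and 29.85 kb from that of S100A6, had log2 fold changes of 1.12, 1.46, 1.00 and 1.41, and all 4 were called. S100A6 at one end of the run had 0.32. The next tested genes beyond S100A2, S100A16 at 77.15 kb and S100A13 at 91.51 kb, had 0.02 and 0.00, and CHTOP, SNAPIN and ILF2 after them had −0.14, 0.21 and 0.03, none of them called. Among 34 genes of 1q21 around the S100 genes, 15 could be tested. FLG alone was called higher and 0 were called lower, beside 1.83% and 3.66% of all tested rows. The median of the 15 log2 fold changes was 0.05. FLG encodes filaggrin of the skin barrier, which also begins with an S100-type EF-hand domain. FLG was at 2.72, 4.09 and 3.36 FPKM in shCtr and at 6.67, 5.34 and 6.31 FPKM in shZNF148 (log2 fold change 0.70, adjusted p = 0.0293). These values are of the more abundant of its 2 rows, and with both rows summed FLG was not called (log2 fold change 0.65, adjusted p = 0.0696). The adjusted p of FLG was 0.101 without shCtr replicate 1, 0.0529 without shCtr replicate 2, 0.104 without shCtr replicate 3, 0.0826 without shZNF148 replicate 1 and 0.0644 without shZNF148 replicate 3. An antisense RNA gene, FLG-AS1, is annotated across FLG, and their reads cannot be told apart without strand. The 2 most abundant genes of this list by the mean over all 6 samples were ILF2, at 193 and 196 FPKM on average, and SLC39A1, a zinc transporter, at 89.0 and 109 FPKM (log2 fold change 0.29, adjusted p = 0.0265, under 1.5-fold).

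The annexins, calcium-dependent membrane proteins that S100 dimers bridge in pairs, were described next. Of 12 genes 10 were tested. None of them was called (0 in either direction), beside 1.83% of all tested rows called higher and 3.66% lower. Their log2 fold changes had a median of 0.05. ANXA2, the partner of S100A10, was at 459, 479 and 457 FPKM in shCtr and at 433, 378 and 415 FPKM in shZNF148. Every knockdown sample of ANXA2 was below every control (log2 fold change −0.19, 95% interval −0.35 to −0.02, adjusted p = 0.114). The ratio of S100A10 to ANXA2 was 2.83 to 3.21 in shCtr and 2.28 to 2.47 in shZNF148, again with no overlap. ANXA1, the partner of S100A11, was at 323 ± 5.76 and 395 ± 44.8 FPKM (log2 fold change 0.28, adjusted p = 0.0734). Its knockdown samples were all above the controls. ANXA5, the other most abundant annexin, was at 462 ± 6.40 and 427 ± 36.4 FPKM (adjusted p = 0.311). ANXA3 had the largest difference of the list, 115 ± 3.40 against 51.3 ± 21.8 FPKM (log2 fold change −1.25), with an adjusted p of 0.0504, and is named here after its values were seen.

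Of 22 receptors and other binding partners 18 were tested, with 0 called higher and 2 lower, beside 1.83% and 3.66% of all tested rows. The log2 fold changes of the 18 had a median of −0.09. AGER, the gene of RAGE, was listed at 0 in all samples in each of its 7 rows. TLR4 was at 2.73 ± 0.321 and 3.63 ± 0.717 FPKM (adjusted p = 0.187). MYH9, the partner of S100A4, was at 359 ± 6.69 and 347 ± 30.6 FPKM (adjusted p = 0.652), and CACYBP, the partner of S100A6, at 19.6 ± 0.876 and 17.0 ± 1.93 FPKM (adjusted p = 0.194). AHNAK, a giant scaffold protein held by the S100A10 and annexin A2 complex, was at 166 ± 2.04 and 179 ± 8.65 FPKM (adjusted p = 0.236). Every knockdown sample of AHNAK was above every control. BSG, a cell surface receptor for S100A9, was at 454 ± 19.6 and 443 ± 26.9 FPKM. AGER was too low to test, and none of the other partners named in this paragraph passed the test.

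The 2 partners that were called were PLAT and HLTF. PLAT was at 110, 112 and 98.9 FPKM in shCtr and at 70.8, 56.7 and 70.8 FPKM in shZNF148. All knockdown samples were lower (log2 fold change −0.69, SE 0.10, adjusted p = 0.0172), as they were for S100A10. The adjusted p of PLAT was 0.0899 without shCtr replicate 1, 0.0599 without shCtr replicate 2 and 0.0725 without shCtr replicate 3. HLTF, a helicase-like transcription factor, was at 15.4, 18.0 and 16.6 FPKM in shCtr and at 9.16, 9.34 and 9.48 FPKM in shZNF148 (log2 fold change −0.77, SE 0.08, adjusted p = 0.0093). Without shCtr replicate 3 its adjusted p was 0.0653.

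Other EF-hand proteins were taken as relatives that share the calcium-binding fold. They made 34 rows, of which 33 were tested. Their log2 fold changes had a median of −0.01. In either direction 0 were called, beside 1.83% of all tested rows called higher and 3.66% lower. By the adjusted p alone 0 were higher and 5 lower, beside 5.46% and 8.13% of all tested rows. These 5 were SRI (log2 fold change −0.44), RCN1 (−0.45), CALU (−0.25), ACTN4 (−0.24) and the joint row of the myosin light chains MYL12A and MYL12B, which was at 923 ± 20.4 and 696 ± 68.7 FPKM (log2 fold change −0.41, adjusted p = 0.0295). MYL6, another myosin light chain and the second most abundant row, was at 776 ± 17.7 and 807 ± 74.5 FPKM (adjusted p = 0.679).

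Since S100A2 is a target of p63 in basal epithelium, basal keratinocyte genes were counted too. Of 12 such genes 6 were tested, with 0 called higher and 1 lower, beside 1.83% and 3.66% of all tested rows. The log2 fold changes of the 6 had a median of −0.22. ITGB4, a hemidesmosome integrin, went from 65.5 ± 4.91 to 43.2 ± 2.80 FPKM (log2 fold change −0.59, adjusted p = 0.0133), and its adjusted p was 0.0745 without shCtr replicate 1 and 0.0731 without shCtr replicate 3. Without shZNF148 replicate 3 its log2 fold change was −0.54, under 1.5-fold. The 2 most abundant rows of this list were that of KRT17 and KRT19, at 265 ± 28.4 and 232 ± 18.8 FPKM (adjusted p = 0.239), and that of LAMB3, at 229 ± 10.2 and 175 ± 8.60 FPKM (log2 fold change −0.38, adjusted p = 0.0205). TP63 itself was at 0.146 FPKM or less in every sample.

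Markers of other cells were measured beside these results. The 9 myeloid blood cell markers summed to 2.77 to 4.35 FPKM in shCtr and to 7.17 to 10.9 FPKM in shZNF148, and 2 were at 0 in all samples and 6 under 1 FPKM in all. Both tested ones were called higher, beside 1.83% of all tested rows. They were LYZ (0.627 ± 0.173 to 3.18 ± 1.55 FPKM, log2 fold change 1.31, adjusted p = 0.0267) and CSF1R (2.19 ± 0.614 to 3.96 ± 0.245 FPKM, log2 fold change 0.65, adjusted p = 0.0402). LYZ was under 1 FPKM in every shCtr sample and was tested only because its shZNF148 levels were higher. The count of calls among the tested markers therefore depends in part on the filter. LYZ lost its call without any 1 of the 3 shCtr replicates or without shZNF148 replicate 1 (adjusted p 0.0587 to 0.103), and CSF1R kept it only without shCtr replicate 2 (0.0471). Of the markers too low to test, the pan-leukocyte marker PTPRC was listed at 0 in all 3 shZNF148 samples and reached 0.115 FPKM in shCtr. CD14 averaged 0.692 FPKM in shCtr and 1.25 FPKM in shZNF148, with 2.01 FPKM in shZNF148 replicate 2. In the same order ITGAM averaged 0.0158 and 0.0249 FPKM, FCGR3A 0 and 0.0238 FPKM, and SPI1 0.117 and 0.0553 FPKM. CSF3R and MPO were at 0 in all samples. S100A8, S100A9 and S100A12 were at or near 0. S100A4, itself abundant in myeloid cells, was at 803 FPKM or more in shZNF148. The 5 markers that MDA-MB-231 cells express strongly summed to 3103 to 3225 FPKM in shCtr and 2595 to 2682 FPKM in shZNF148. All 5 had negative log2 fold changes, and 0 were called, beside 1.83% of all tested rows called higher and 3.66% lower. By the adjusted p alone 2 were lower, beside 8.13% of all tested rows. They were CD44 (log2 fold change −0.46, adjusted p = 0.0185) and AXL (log2 fold change −0.29, adjusted p = 0.0364). The 6 markers that the line lacks or holds at low levels summed to 20.4 to 23.4 and 18.7 to 22.4 FPKM. Among these, ESR1, the estrogen receptor gene, was listed at 0 in all samples. What part these marker levels have in the S100 differences was not tested, and in bulk RNA fewer cells of a kind and less RNA per cell cannot be told apart.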

How the data were processed

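The authors deposited 1 table of FPKM values per gene, without coordinates or counts. The submitters' processing notes name bcl2fastq 2.17.1.14, TopHat2 2.0.14, Cufflinks 2.2.1, Cuffnorm 2.2.1 and the builds hg18 and hg19, whereas the study's methods describe Salmon on GRCh38 with DESeq2 testing, so which annotation made the values is uncertain and positions were taken from GENCODE release 44 on GRCh38. Depth is unknown, and steps between low values put it at 0.806 to 1.13 times that of shCtr replicate 1. The 11777 of 24108 rows whose mean reached 1 FPKM were tested across all genes as log2(FPKM + 1), which understates changes of low genes, with limma 3.58.1 (R 4.3.3, empirical Bayes with trend) and Benjamini-Hochberg adjustment. Calls needed an adjusted p under 0.05 together with a change of over 1.5-fold. Count tests were not run because the table holds no counts. The scripts were tested on simulated data. No label says that the 3 replicates per group were separate cultures, so p-values measure the spread between these samples, which may be technical.

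The members and the companion lists were chosen with earlier results of these data known. Named were all 10 members, every other S100 gene, ZNF148, the called genes of each companion list and, where fewer than 3 were called, its 2 most abundant, and the partners ANXA1, ANXA2, AHNAK, CACYBP, MYH9, AGER and TLR4. ANXA3, SRI, RCN1, CALU, ACTN4, CHTOP, SNAPIN, RPS27, TP63, PTPRC, CD14, ITGAM, FCGR3A, SPI1, CSF3R, MPO, CD44, AXL and ESR1 fall outside this rule and were named after their values were seen. Abundance was ranked by the mean over all 6 samples. Symbols missing from the table were looked up by RefSeq synonyms. All value columns were used (0 left out). Sequence windows came from RefSeq (GRCh38.p14).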

Additional observations from a re-analysis of the deposited data

How the results depend on the processing

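The number of S100 members called higher was 3 as analysed and 0 to 3 when 1 sample was left out, and the number called lower was 0 as analysed and 1 by the adjusted p alone. Members kept their direction under the alternatives run except S100A13, which was −0.000335 with median-ratio scaling and −0.0670 to 0.0905 with 1 sample left out, and S100A16, which was −0.0291 to 0.0836 with 1 sample left out. With quantile normalization the log2 fold change of S100A6 was 0.42 with an adjusted p of 0.0382. Over all rows the 216 called higher became 76 with a pseudocount of 5 FPKM, 643 by the adjusted p alone, 390 with every sample scaled to the same summed FPKM (chosen after seeing the data) and 3 to 209 with 1 sample left out. The 431 called lower became 204 with a pseudocount of 5 FPKM, 957 by the adjusted p alone and 19 to 393 with 1 sample left out. The calls dropped furthest without shCtr replicate 1 (3 higher, 26 lower) and without shCtr replicate 3 (3 higher, 19 lower), then without shCtr replicate 2 (59 and 142) and without shZNF148 replicate 1 (64 and 206). In the 6 companion lists the 2 genes called higher became 1 with no filter on low values, 0 with a pseudocount of 5 FPKM, 1 without the variance trend, 1 with rows of one symbol summed and 0 to 1 with 1 sample left out. The 3 called lower became 9 by the adjusted p alone and 0 to 4 with 1 sample left out. The cause was not tested, beyond fewer samples or a looser rule by construction.

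The samples of the same replicate number did not deviate together (correlations of their deviations 0.00, −0.09 and 0.03), so the numbers were not taken as pairs. With a replicate block 99 rows were called higher and 216 lower, the companion lists had 0 called higher, and the adjusted p was 0.0533 for S100A3 and 0.0503 for S100A5. Depth is unknown, and genes as low as S100A8 and S100A14 could not be tested.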
